A study of Drosophila melanogaster with 8 samples.

Results

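When a Drosophila neuroblast divides, it places a set of fate determinants on its basal cortex, and the small daughter cell inherits them. Miranda (mira) is the coiled-coil adaptor that carries Prospero, Brat and the RNA-binding protein Staufen to this cortex. Partner of Numb (pon) is the adaptor that helps to place Numb, an inhibitor of Notch signalling. In the daughter, the homeodomain factor Prospero (pros) enters the nucleus and turns off stem cell genes, and the TRIM-NHL protein Brat (brat) represses translation of growth mRNAs. Loss of brat, pros or numb is known to give larval brain tumours of neuroblasts. The proteins are inherited by the daughter, so where the mRNAs themselves stand is a separate question, which the comparison of the 2 sorted cell types addresses.

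The 6 genes mira, pros, brat, stau, pon and numb were taken by symbol from the library files, which list 14210 genes, and each symbol matched 1 row. The series measured polyadenylated RNA of neuroblasts and of their differentiated daughter cells, the neurons, sorted by flow cytometry from brains of larvae late in the third instar. Both groups were labelled wild type and carried UAS-stingerGFP, a nuclear green fluorescent protein, driven by asense-Gal4, so the reporter is shared by both and the sort gates that parted them are not given in the labels. There were 3 neuroblast replicates from 5 libraries and 2 neuron replicates from 3 libraries. Neuroblast 2, neuroblast 3 and neuron 1 were each a pair of technical replicates, which were averaged.

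Levels are in FPKM, which corrects fragment numbers for the length of the transcript and the size of the library. The summed FPKM of a library ran from 449268 to 753682 in neuroblasts and from 321551 to 343514 in neurons, so values as deposited do not share a common total. Of the 7 neuroblast markers all 7 passed the test described below toward neuroblasts, and of the 10 neuron markers all 10 passed it toward neurons. The neuroblast marker sum was 928 to 1079 FPKM in neuroblasts and 48.3 to 73.7 FPKM in neurons. The neuron marker sum was 14.7 to 146 FPKM in neuroblasts and 781 to 1055 FPKM in neurons. Among the 8 glia markers tested, Eaat1 and loco were higher in neuroblasts and 5 passed toward neurons. Of these 5, the glial factor gene repo averaged 8.81 FPKM and gcm 22.7 FPKM in neurons, against 0.597 and 1.83 FPKM in neuroblasts. The test took genes at 1 FPKM in 2 or more replicates, which repo, moody, Gs2 and alrm reached among neurons but not among neuroblasts. Their calls are thus not independent of this filter, and the same holds for the neuron markers para and Gad1. The glia marker sum was 166 to 244 FPKM in neuroblasts and 107 to 138 FPKM in neurons. Most of it was nrv2, which did not pass, at a mean of 123 FPKM in neuroblasts and 66.7 FPKM in neurons. Eaat1 averaged 65.1 FPKM in neuroblasts and 9.05 FPKM in neurons. The sum therefore does not measure glial RNA as a whole. The 5 hemocyte markers summed to at most 0.695 FPKM in neuroblasts and 5.25 FPKM in neurons, of which Pxn made up most. The hemocyte genes He and nimC1 were listed at 0 in all neuroblast replicates, and He in both neuron replicates too. The 4 fat body markers summed to at most 0.420 FPKM, with Fbp1 and Lsp2 at 0 in neuroblasts and Fbp2 at 0 in neurons.

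All 6 genes differed between the cell types, in opposite directions. The adaptor genes mira and pon and the cargo genes stau and numb were higher in neuroblasts, while the cargo genes pros and brat were higher in neurons. The test was limma on log2(FPKM + 1) over 7975 genes, those that reached 1 FPKM in 2 or more replicates, at an adjusted p under 0.05. It called 4 of the 6 toward neuroblasts, where it called 33.4% of all tested genes, and 2 of the 6 toward neurons, where it called 29.9%. In either direction 63.3% of tested genes were called. Of the calls 52.8% were toward neuroblasts as deposited, 33.3% with libraries scaled to the same protein-coding sum and 40.0% with the sum of genes other than ribosomal protein genes. Replicates of the cell types did not overlap for any of the 6. This held for 4 of the 6 toward neuroblasts against 41.8% of tested genes, for 2 of the 6 toward neurons against 36.8%, and in either direction for 78.7% of tested genes. A call or a lack of overlap alone therefore sets no gene apart here. In bulk samples fewer cells with a transcript and less transcript per cell cannot be told apart.

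**Figure D1:**
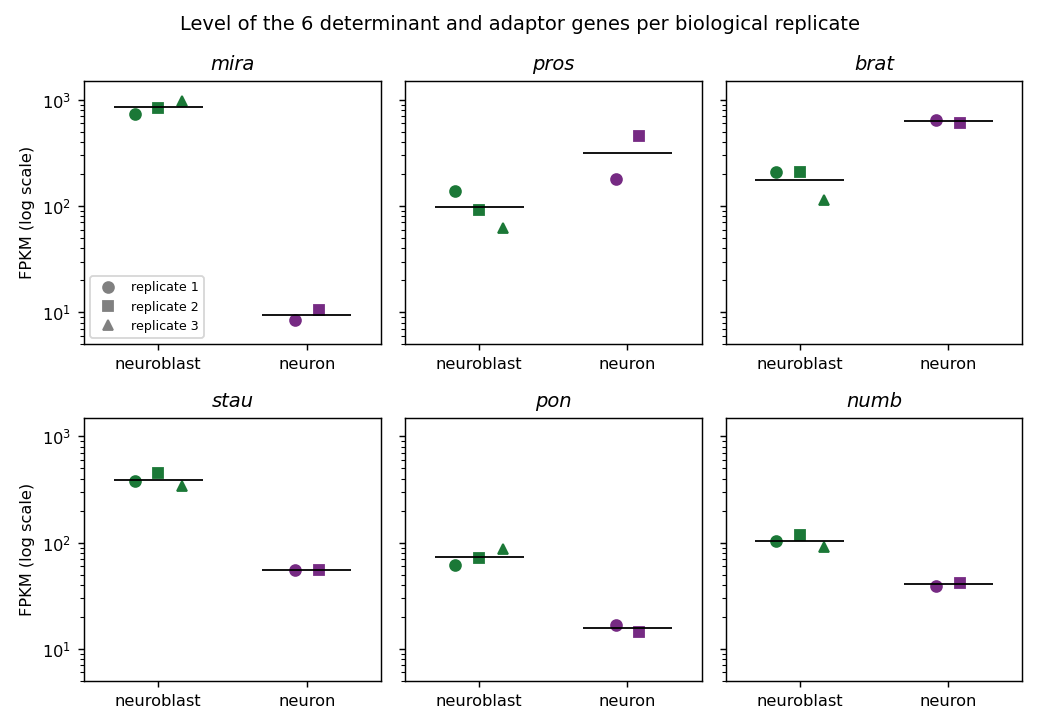
FPKM on a log axis of each of the 6 genes in each biological replicate, 3 of neuroblasts and 2 of neurons, with a line at the group mean. mira shows the widest gap, with all neuroblast replicates at 734 FPKM or more and the neurons at 10.5 FPKM or less, while pros and brat lie higher in neurons.

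The Miranda gene is at chromosome arm 3R, 15757521 to 15760842, in the coordinates of the files (FBgn0021776). Its level was 734, 831 and 980.0 FPKM in the 3 neuroblast replicates, against 8.42 and 10.5 FPKM in the 2 neuron replicates. The lowest neuroblast replicate thus lay far above the highest neuron replicate. Means were 848 ± 124 FPKM (SD, n = 3) in neuroblasts and 9.45 ± 1.46 FPKM (SD, n = 2) in neurons, an 89.7-fold ratio of means. On the log2(FPKM + 1) scale the difference was 6.34 (SE 0.26, 95% interval 5.73 to 6.96) with a limma adjusted p of 0.000196. By log2 fold change toward neuroblasts mira ranked 7 of the 7975 tested genes. By level, mira ranked 107 to 124 among the tested genes in neuroblasts and 4522 to 5109 in neurons. The neuron replicates held 0.993% and 1.24% of the mean neuroblast level of mira, against 4.88% and 7.45% for the summed neuroblast markers. Much of that sum in neurons was stg, at 26.8 and 46.2 FPKM. Single markers ranged in log2 fold change from 2.85 (stg) to 5.82 (grh). The marker grh averaged 148 FPKM in neuroblasts and 1.64 FPKM in neurons, so a drop of this size is not particular to mira. Within the flow cell that neuroblast 1, neuroblast 2 and neuron 1 share, the log2 difference was 6.38.

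Staufen (stau, 2R, 14005401 to 14013337, FBgn0003520) binds double-stranded RNA and rides on Miranda together with pros mRNA. The 3 neuroblast replicates had 379, 450.2 and 342 FPKM, and the 2 neuron replicates had 55.8 and 55.0 FPKM. The neuron replicates were nearly the same, and every neuroblast replicate lay far above them. Means were 390.5 ± 54.8 FPKM in neuroblasts and 55.4 ± 0.530 FPKM in neurons, a 7.05-fold ratio. The log2 difference was 2.79 (SE 0.25, 95% interval 2.19 to 3.39) with a limma adjusted p of 0.000498, and it was 2.87 within the shared flow cell. The neuron replicates held 14.3% and 14.1% of the mean neuroblast level of stau.

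Prospero (pros, 3R, 7155624 to 7232782, FBgn0004595) went the other way. Neuroblast replicates had 139, 91.6 and 62.5 FPKM of pros, while neuron replicates had 180.3 and 457 FPKM. Neuroblast 1 was the highest of its group and lay closer to neuron 1 than neuron 1 did to neuron 2. Means were 97.7 ± 38.5 FPKM in neuroblasts and 319 ± 196 FPKM in neurons, a 3.26-fold ratio toward neurons. The log2 difference was -1.62 (SE 0.49, 95% interval -2.77 to -0.47) with a limma adjusted p of 0.0230. Within the shared flow cell the difference fell short of the threshold, at -0.67 (limma adjusted p 0.189). In that fit, as in the one without neuron 2, a single neuron replicate remained and was assumed to vary as the neuroblasts do. Without neuron 2 the difference was -0.95 (limma adjusted p 0.180). With both neuron replicates kept it was -1.61 (0.0516) without neuroblast 2 and -1.34 (0.0641) without neuroblast 3.

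Between technical replicates pros was steady, at 90.8 and 92.4 FPKM in neuroblast 2, 62.9 and 62.2 FPKM in neuroblast 3 and 177 and 184 FPKM in neuron 1. Neuroblast 1 and neuron 2 have no technical replicate, and neuron 2 was on a flow cell of its own. The highest neuron replicate was 2.54 times the lowest for pros, and 2.82% of tested genes had a wider range between the neuron replicates. Among neuroblasts the same factor was 2.22, and 19.7% of tested genes had a wider range.

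Brat (brat, 2L, 19133806 to 19177972, FBgn0010300) was higher in neurons with a narrower spread. Levels were 209, 208 and 114 FPKM in the neuroblast replicates and 649 and 601 FPKM in the neuron replicates. Neuroblast 3 was lower than the other neuroblast replicates, and both neuron replicates lay far above all 3. Means were 177 ± 54.8 FPKM in neuroblasts and 625 ± 33.8 FPKM in neurons, a 3.54-fold ratio toward neurons. The log2 difference was -1.87 (SE 0.35, 95% interval -2.70 to -1.04) with a limma adjusted p of 0.00356, and it was -1.63 within the shared flow cell. By level brat ranked 309 to 881 among tested genes in neuroblasts and 62 to 74 in neurons.

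Partner of Numb (pon, X, 4530363 to 4533145, FBgn0025739) was the lowest of the 6 by mean level in neuroblasts. Its FPKM was 61.98, 72.0 and 87.1 in the neuroblast replicates, and 16.8 and 14.4 in the neuron replicates. As with mira, neuroblast 3 had the highest FPKM and neuroblast 1 the lowest, while by rank among tested genes both were highest in neuroblast 2. Means were 73.7 ± 12.7 FPKM in neuroblasts and 15.6 ± 1.67 FPKM in neurons, a 4.73-fold ratio. The log2 difference was 2.16 (SE 0.26, 95% interval 1.55 to 2.77) with a limma adjusted p of 0.000883, and it was 1.93 within the shared flow cell.

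Numb (numb, 2L, 9437469 to 9463787, FBgn0002973) was also higher in neuroblasts. Neuroblast replicates had 104, 118 and 90.8 FPKM, and neuron replicates had 39.4 and 41.7 FPKM. The groups did not overlap, and the neuron replicates held 37.7% and 39.9% of the mean neuroblast level. Means were 104 ± 13.8 FPKM in neuroblasts and 40.5 ± 1.61 FPKM in neurons, a 2.58-fold ratio. The log2 difference was 1.34 (SE 0.24, 95% interval 0.77 to 1.90) with a limma adjusted p of 0.00288, and it was 1.47 within the shared flow cell. The call depended on the scaling: libraries scaled to the same protein-coding sum gave 0.58 (limma adjusted p 0.137), and scaling to the sum of genes other than ribosomal protein genes gave 0.81 (limma adjusted p 0.0690).

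**Figure D2:**
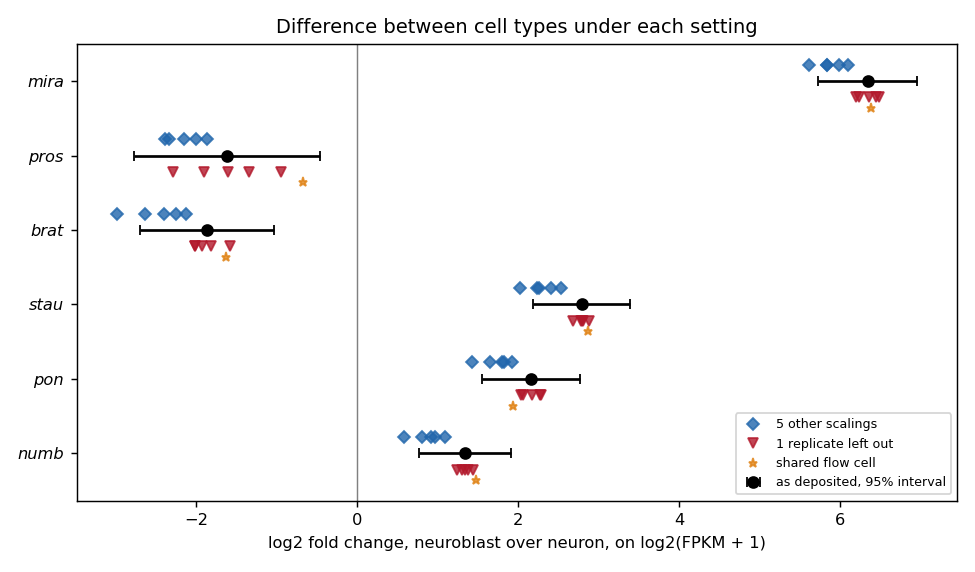
Log2 fold change, neuroblast over neuron, of each gene as deposited with its 95% interval (black), with 5 other scalings of the libraries (blue), with each replicate left out (red) and within the shared flow cell (orange). None of the 5 scalings moved a gene across 0, which leaving out replicates that do not overlap could not do. Over all these settings pros had the widest range, -2.38 to -0.67.

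The direction of each gene was read under 5 other scalings, of which quantile normalization moves genes by unequal amounts. Over the tested genes the median log2 fold change moved by -0.69 with the protein-coding sum, to -0.53, against 0.17 as deposited. None of the 6 genes changed sign under the 5 other scalings, where mira lay between 5.61 and 6.10, stau between 2.03 and 2.54 and pon between 1.42 and 1.92. pros lay between -2.38 and -1.87 and brat between -2.99, with quantile normalization, and -2.12 under the same 5 scalings. Both genes were called under all 5.

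Per transcript length, the order of the 6 genes turned over between the cell types. In neuroblasts the order by mean was mira, stau, brat, numb, pros and pon. The ranges of mira, stau and brat did not overlap one another, while those of brat and numb, of numb and pros, and of pros and pon did. In neurons the order was brat, pros, stau, numb, pon and mira, and no neighbouring ranges overlapped. The 6 genes summed to 1626, 1771 and 1676 FPKM in neuroblasts and to 949.8 and 1180 FPKM in neurons. Of this sum mira made up 45.1% to 58.5% in neuroblasts and 0.886% and 0.889% in neurons. brat made up 6.77% to 12.8% in neuroblasts and 68.4% and 51.0% in neurons. pros made up 3.73% to 8.54% in neuroblasts and 19.0% and 38.7% in neurons.

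**Figure D3:**
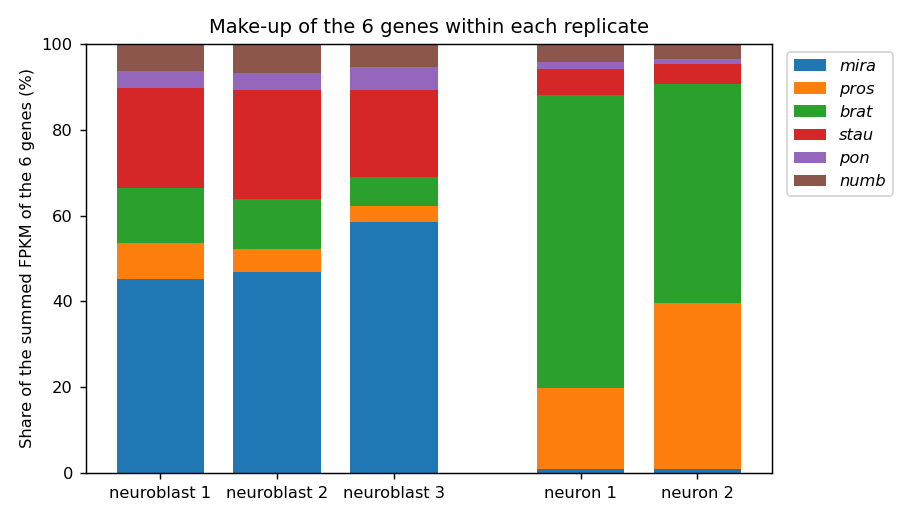
Share in percent of each of the 6 genes in their summed FPKM, 1 bar per biological replicate, 3 of neuroblasts and 2 of neurons. mira and stau fill most of each neuroblast bar, and brat and pros together fill most of each neuron bar.

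A ratio between genes in the same replicate does not change when a library is multiplied by a single factor. Quantile normalization does change such ratios and was not applied to them. The ratio of pros to mira, in FPKM, was 0.189, 0.110 and 0.0638 in neuroblasts, against 21.4 and 43.6 in neurons. For brat the ratio to mira was 0.284, 0.250 and 0.116 in neuroblasts, against 77.1 and 57.3 in neurons. The mRNAs of pros and brat were thus below that of mira in every neuroblast replicate and above it in both neuron replicates. The ratio of stau to mira was 0.516, 0.542 and 0.349 in neuroblasts, against 6.61 and 5.24 in neurons. The 2 adaptors kept a close ratio within neuroblasts, where pon over mira was 0.0845, 0.0867 and 0.0889, and it was 1.99 and 1.37 in neurons. The ratio of numb to pon differed least, at 1.68, 1.64 and 1.04 in neuroblasts, against 2.35 and 2.89 in neurons.

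On the log2 scale the ratios differed between neuroblasts and neurons by -8.12 for pros over mira, -8.36 for brat over mira, -3.68 for stau over mira, -4.25 for pon over mira and -0.87 for numb over pon. None of the 5 ratios overlapped between the cell types. Of single tested genes 78.7% did not overlap either, and no share over other gene pairs was computed. Every ratio but numb over pon has mira below the line, so these are not separate results and the lack of overlap sets no pair apart. An exact permutation test over the 5 replicates, two-sided, gave p = 0.1 for each, also after adjustment over the 5 ratios, which is the smallest p that 3 against 2 replicates allow. As no ratio overlapped, leaving out any replicate could not change the sign of a difference.

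**Figure D4:**
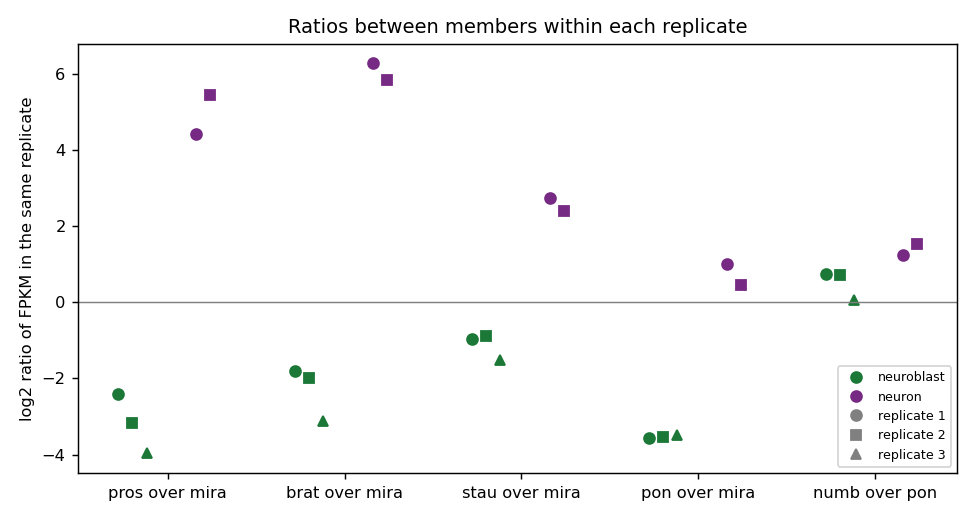
Log2 ratio of FPKM between 2 genes in the same replicate, for neuroblasts (green) and neurons (purple). The neuroblast points of pon over mira lie together near -3.5, and no ratio overlaps between the cell types. Of single tested genes 78.7% do not overlap either.

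The 6 genes differed in how they varied among neuroblast replicates. In FPKM as deposited, the highest neuroblast replicate was 1.34 times the lowest for mira, 1.31 for stau, 1.41 for pon and 1.305 for numb. The median over the tested genes was 1.61, taken on FPKM + 1, which lowers the factor of low genes. For pros and brat the factor was 2.22 and 1.84. Genes of neurons varied in the same replicates: the summed neuron markers stood at 15.9% of their mean neuron level in neuroblast 1, 8.56% in neuroblast 2 and 1.60% in neuroblast 3. All 10 neuron markers were lowest in neuroblast 3, where the pan-neuronal gene elav stood at 10.0 FPKM, against 57.2 FPKM in neuroblast 1. Of the 6 genes, pros, brat, stau and numb were also lowest in neuroblast 3. So was the neuroblast marker sum, at 928 FPKM, against 1079 FPKM in neuroblast 1 and 961 FPKM in neuroblast 2. Between the neuron replicates, pros was higher in neuron 2 and brat was higher in neuron 1. The neuron marker sum was 1055 FPKM in neuron 2 and 781 FPKM in neuron 1. The neuroblast marker sum was also higher in neuron 2, at 73.7 against 48.3 FPKM, as was the glia marker sum, at 138 against 107 FPKM. Of the glia marker sum nrv2 gave 81.3 FPKM in neuron 2 and 52.2 FPKM in neuron 1. The glia markers repo, gcm, Gs2 and alrm were also higher in neuron 2, while Eaat1, loco, moody and wrapper were lower there. The part of these markers in the levels of pros and brat was not tested. The summed FPKM of the neuroblast 3 libraries was 740395 and 753682, against 551675 in neuroblast 1 and 449268 and 464209 in neuroblast 2. The factors and orders above were not scaled for these totals. By rank among tested genes mira and pon were highest in neuroblast 2 (107 and 992, against 121 and 1157 in neuroblast 3). There stau and numb ranked 146 and 581, against 272 and 1104 in neuroblast 3.

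**Figure D5:**
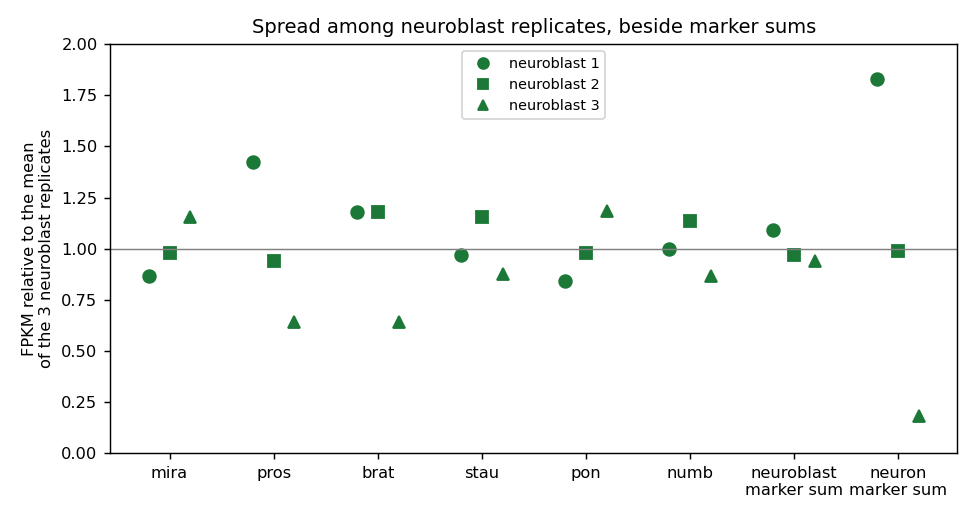
FPKM of each gene in the 3 neuroblast replicates relative to their mean, beside the summed FPKM of 7 neuroblast markers and of 10 neuron markers. pros, brat, stau and numb were lowest in neuroblast 3, as were the neuron and the neuroblast marker sums, while mira and pon had their highest FPKM there.

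Each value pools the transcripts of its gene, of which the files list 6 for pros, 4 for brat, 3 for numb and stau, 2 for mira and 1 for pon, so no isoform is resolved. The genes KP78a and KP78b lie within pros on the opposite strand, by the reference annotation, with no shared exon bases. KP78a stood at 99.0 to 122 FPKM in neuroblasts and 2.23 to 2.40 FPKM in neurons, the reverse of pros. The mira gene lies within Hs6st, again with no shared exon bases, and Hs6st stood at 6.74 to 12.6 FPKM in neuroblasts and 28.0 to 39.7 FPKM in neurons. The counting error of Cufflinks was small beside these differences. Its interval for mira was 991 to 1002 FPKM in the deepest neuroblast library and 8.92 to 12.1 FPKM in neuron 2, where it reached 15.0% to each side, the widest for any of the 6 genes.

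The authors' deposited table lists all 6 genes, with the same directions. It holds 3532 genes, none with an adjusted p above 0.00995, where the library files list 14210. Being listed is thus itself a call, and ranks within it are among called genes only. In the authors' deposited table the fold of neuroblast over neuron was 73.6 for mira, 5.68 for stau, 4.36 for pon and 2.40 for numb. The authors' deposited table gives folds of 0.250 for brat and 0.159 for pros, which are 4.00-fold and 6.30-fold toward neurons. For pros the ratio of mean FPKM, computed from the library files, was 3.26-fold toward neurons. The adjusted p-values in the authors' deposited table were 1.59e-20 for mira, 5.02e-06 for stau, 2.73e-05 for pon, 0.00112 for brat, 0.00476 for pros and 0.00860 for numb. Among the 3532 genes of the authors' deposited table, pros ranked 1 by mean normalized count in neurons and brat ranked 8, while mira ranked 4 by that in neuroblasts and stau ranked 14. The counts of the authors' deposited table are not divided by length, and the longest transcript of pros has 23486 bases in the reference annotation, against 3232 for mira.

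The genes that place the determinants on the basal cortex were examined next. Of 21 genes of this machinery 10 passed toward neuroblasts, 3 toward neurons and 8 in neither direction, where 33.4% of all tested genes were called toward neuroblasts, 29.9% toward neurons and 63.3% in either. The list's median log2 fold change was 0.74, against 0.17 for all tested genes. The largest was inscuteable (insc), also 1 of the neuroblast markers, which links the apical complex to the spindle, at 75.0 ± 17.0 FPKM in neuroblasts and 4.03 ± 0.295 FPKM in neurons. The mitotic kinase gene polo averaged 279.9 ± 88.1 FPKM in neuroblasts and 23.0 ± 5.89 FPKM in neurons. The cortical tumour suppressor genes l(2)gl and scrib, needed to target Miranda and Numb, had log2 fold changes of 2.35 and 1.46, with limma adjusted p-values of 0.00122 and 0.00175. Higher in neurons were Dap160, which binds atypical protein kinase C, flfl, a subunit of the PP4 phosphatase that acts on Miranda, and raps, also named pins. Their log2 fold changes were -1.55, -0.82 and -0.73. aPKC, the kinase that drives Numb and Miranda off the apical cortex, stood at 35.4 ± 5.43 FPKM in neuroblasts and 21.8 ± 3.56 FPKM in neurons, with a limma adjusted p of 0.0580. With the protein-coding sum the counts were 5 and 5. The count toward neurons was 1 without neuroblast 2 or neuron 1, and without neuron 2 limma called 0, with 1 at an unadjusted p under 0.05.

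Numb acts through endocytosis of Notch pathway proteins. Of 12 tested genes for its endocytic and Notch partners, 6 passed toward neuroblasts, 2 toward neurons and 4 in neither direction, beside 33.4%, 29.9% and 63.3% of all tested genes called toward neuroblasts, toward neurons and in either direction. The median was 0.90 against 0.17 for all tested genes. The transmembrane protein gene spdo, which Numb keeps from the cell surface, stood at 55.5 ± 4.34 FPKM in neuroblasts and 14.2 ± 2.31 FPKM in neurons, with a limma adjusted p of 0.00106. The Notch receptor N, its ligand Dl and the ubiquitin ligase gene neur had log2 fold changes of 1.55, 1.68 and 1.44. Toward neurons lay the Numb-associated kinase gene Nak, which averaged 12.3 ± 2.91 FPKM in neuroblasts and 40.6 ± 3.47 FPKM in neurons, and the dynamin gene shi, with a log2 fold change of -0.81. The gene of alpha-Adaptin, the AP-2 subunit that Numb binds, stood at 33.3 ± 0.945 FPKM in neuroblasts and 34.5 ± 4.42 FPKM in neurons. Its log2 difference was -0.05 (limma adjusted p 0.876). The protein-coding sum left 1 gene called toward neuroblasts and 5 toward neurons. Without neuron 1 the counts were 3 and 1, and without neuroblast 2 or neuron 2 the count toward neurons was also 1.

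Brat represses mRNAs together with Pumilio and Nanos in the embryo. Of 15 tested genes for partners of Brat and Staufen in mRNA control, 2 passed toward neuroblasts, 3 toward neurons and 10 in neither direction. Of all tested genes 33.4% were called toward neuroblasts, 29.9% toward neurons and 63.3% in either. The median was -0.26 against 0.17 for all tested genes. pum, the gene of Pumilio, passed in the direction of brat. It averaged 36.3 ± 15.4 FPKM in neuroblasts and 142 ± 26.6 FPKM in neurons (limma adjusted p 0.00399). The Nanos gene nos stood at 0.157 FPKM or less in every replicate, and osk, whose mRNA Staufen transports in the oocyte, was listed at 0 in all 5. The RNA-editing enzyme gene Adar and the mRNA transport gene egl were higher in neurons, by log2 fold changes of -1.48 and -1.16. Higher in neuroblasts were cup, a translational repressor gene, and BicD, a transport adaptor gene, at 1.81 and 0.84. Both egl and cup are low, with means of 0.342 and 3.58 FPKM in neuroblasts and 1.98 and 0.272 FPKM in neurons. Each reached the filter of 1 FPKM only in the cell type where it was higher, so its call is not independent of the filter. The other TRIM-NHL genes mei-P26 and wech did not pass, at 0.06 and -1.03. With the protein-coding sum 1 gene was called toward neuroblasts and 7 toward neurons. Without neuroblast 1, neuroblast 2, neuron 1 or neuron 2 the count toward neuroblasts was 1, and without neuroblast 1 that toward neurons was 5.

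Prospero is known from embryos to repress neuroblast and cell cycle genes and to activate the cell cycle inhibitor dacapo (dap). Of 9 such genes 7 passed toward neuroblasts, 1 (dap) toward neurons and 1, E2f, in neither direction, beside 33.4% of all tested genes called toward neuroblasts and 29.9% toward neurons. Of the 7, dpn, wor, insc, CycE and stg were also among the neuroblast markers that checked the sort. The list adds ase (asense) and CycA to those 5. The reporter of both groups was driven by asense-Gal4, so ase may not be separate from the sort either. It passed at 1.24 (limma adjusted p 0.0314). The count toward neuroblasts was 6 with each of the 5 other scalings, with the replicate block, and without neuroblast 1 or neuroblast 3. The list's median was 3.68 against 0.17 for all tested genes. dap had 6.30, 4.23 and 2.38 FPKM in neuroblast replicates and 55.4 and 76.9 FPKM in neuron replicates, a log2 difference of -3.71 (SE 0.39) with a limma adjusted p of 0.000694. dpn, wor and CycA had 5.02, 3.68 and 4.16. E2f stood at 102 ± 40.5 FPKM in neuroblasts and 83.02 ± 19.1 FPKM in neurons, with a limma adjusted p of 0.639.

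The genes most like each member were taken by the root mean square difference of centred log2(FPKM + 1) over the 5 replicates, among 7969 other tested genes. mira had few near neighbours: 4 genes lay within 0.3, and the nearest were Pen, CG6486 and CG13305, at 0.22 to 0.30. Pen stood at 914 ± 218 FPKM in neuroblasts and 11.2 ± 3.17 FPKM in neurons. For stau 70 genes lay within 0.3, the nearest being CG14327, CG43163 and Nedd8. CG14327 averaged 5.91 FPKM in neuroblasts and 0 in neurons, and CG43163 averaged 10.4 and 0.509 FPKM. For such low genes the likeness rests in part on the 1 FPKM that the scale adds. For pros 63 lay within 0.3, led by CG18368, CG5810 and pncr011:3L, of which CG18368 averaged 0.911 FPKM in neuroblasts and 5.09 FPKM in neurons. brat, pon and numb had 438, 580 and 298 genes within 0.3. The nearest were CG5079, mtg and Jarid2 for brat, kz, Mtr3 and mars for pon, and baz, ana1 and Lmpt for numb. Of these CG5079 and mtg were also low, at 0.697 and 1.03 FPKM in neuroblasts and 4.77 and 6.10 FPKM in neurons. With 5 replicates of 2 cell types these are descriptions of likeness only.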

How the data were processed

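The labels' protocols give sorting by FACS, RNA isolation with Trizol, enrichment of polyadenylated RNA and strand marking with dUTP. The submitters' processing notes list, with no roles, DESeq 1.8.3, HTSeq, Cufflinks 1.3.0, BWA 0.6.1 and TopHat 1.4.1. Each library file holds FPKM normalized by the authors with a Cufflinks interval, per the file headers. The authors' deposited table holds mean normalized counts (signal), p-values, a ratio (fold) and the log2 of that fold, per the file headers. Its columns of conditions name neuron and nb, which set the direction of its fold as neuroblast over neuron, and no adjusted p in it exceeds 0.00995. Genome build and use of strand in counting were not given in the sources used here, which leaves overlapping genes uncertain. Coordinates follow the files, counted from 1. Ensembl's annotation, of a build that may differ, gave names, biotypes, strands, transcript lengths and exon overlaps.

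Technical replicates were averaged on the log2 scale for tests and on the FPKM scale for printed levels. limma 3.58.1 in R 4.3.3 was fitted on log2(FPKM + 1) with an intensity trend, two-sided, with Benjamini-Hochberg adjustment over 7975 genes. Fold changes on this scale understate the change of low genes. The script was tested on simulated data. Depth was read from the Cufflinks interval, taken as 2 SD of a count on each side: fragments of genes with a single transcript were whole within 0.05 for 90.1% to 91.3% of values and summed to 951199 in neuron 2 and 16280965 in the deepest neuroblast library. The labels do not tell separate animals or sorts for the replicates. The p-values therefore reflect no more than the spread among these samples, which may be technical. Flow cells are those in the file names. Neuroblast 3 and neuron 2 have none in common with the other cell type.

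The members and gene lists were chosen with earlier results of these data known. Named are the 6 members, up to 4 called genes in each direction from each list by adjusted p, genes named as not called, and the 3 genes nearest to each member. 94 of the 95 list entries matched a gene in the files by symbol or reference name. Alternatives covered pseudocount (0.1 and 5), filter (none and 5 FPKM), scaling, technical replicates, prior variance, replicate block, flow cell, Cufflinks status and each replicate left out. There were 0 columns without a sample.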

Additional observations from a re-analysis of the deposited data

How the results depend on the processing

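None of the 6 genes changed direction under the 20 other settings, and none of the 5 ratios did under their 10. As replicates of the cell types did not overlap for these genes and ratios, settings that only left replicates out could not change a direction. mira, stau, brat and pon were called in all 20, numb in 18 and pros in 15. For pros the call was lost within the shared flow cell (-0.67), with the replicate block (-1.34) and without neuroblast 2, neuroblast 3 or neuron 2, and the values with 1 replicate left out ran from -2.29 to -0.95. In these settings 1 member was called toward neurons, and with 1 replicate left out the count ran from 1 to 2. For numb the call was lost with the protein-coding sum (0.58) and with the sum without ribosomal protein genes (0.81). The count of all genes higher in neuroblasts was 2667 as deposited, 1744 with the protein-coding sum, and 1674 (without neuron 2) to 2629 with 1 replicate left out. Of called genes 52.8% were higher in neuroblasts as deposited and 33.3% with the protein-coding sum. Replicate numbers are shared by the cell types, but nothing in the labels pairs them. Deviations of same-numbered replicates correlated at -0.52 for number 1 and -0.39 for number 2. The deviations of the 2 neuron replicates from their mean mirror each other, so these values cannot decide whether replicates are paired. Where 1 neuron replicate was left, as without neuron 1 or neuron 2 and on the shared flow cell, it was assumed to vary as the neuroblasts do. The cause of these changes was not tested.

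The lists moved as follows. Basal machinery genes called toward neuroblasts, 10 as deposited, were 5 with the protein-coding sum and 6 with the sum without ribosomal protein genes. Those toward neurons, 3 as deposited, were 5 with each of the 5 other scalings, 1 with the replicate block and on the shared flow cell, and 0 to 3 with 1 replicate left out (0 by limma without neuron 2, 1 at an unadjusted p under 0.05). Numb partners toward neuroblasts, 6 as deposited, were 1 with the protein-coding sum, 2 with the sum without ribosomal protein genes and 3 to 6 with 1 replicate left out. Those toward neurons, 2 as deposited, were 4 with quantile normalization and the sum without ribosomal protein genes, 5 with the protein-coding sum, 1 with the replicate block and on the shared flow cell, and 1 to 2 with 1 replicate left out. Brat and Staufen partners toward neuroblasts, 2 as deposited, were 1 with a filter at 5 FPKM, upper quartile or median ratio scaling, the protein-coding sum, the sum without ribosomal protein genes, the first technical replicates, the replicate block and the shared flow cell, and 1 to 3 with 1 replicate left out. Those toward neurons, 3 as deposited, were 5 with upper quartile, median ratio and quantile scaling and the sum without ribosomal protein genes, 7 with the protein-coding sum and 2 to 5 with 1 replicate left out.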
